A study of Mus musculus with 4 samples.

Results

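The BTB-Kelch proteins are the substrate receptors of ubiquitin ligases built on the scaffold cullin 3, and they were examined here at the transcript level in dendritic cells exposed to sulforaphane. Members were chosen by gene symbol: the Klhl, Kbtbd and Klhdc genes that carry a number, Cul3, Rbx1 and Ivns1abp, leaving out Keap1. Where a gene had several probe sets, 1 was selected on measured values, namely the highest mean over the 4 arrays. This gave 53 genes of 22180 with a probe set of a single symbol. All 53 matched a RefSeq gene of the same symbol. Rbx1, which encodes the RING subunit, and Klhdc9 were carried only by probe sets with several symbols and were not analysed here. Klhl21 was singled out by its own difference in these arrays, so its values are given as a description without a test, and the question was how far the other members shared that difference.

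The samples were dendritic cells, which present antigen to T cells, grown in culture from the bone marrow of C57BL/6 mice and harvested on day 7. Cells received 0.3 µM sulforaphane in DMSO, or DMSO alone, for 2 h, and both groups then received 100 ng/ml lipopolysaccharide from E. coli for 1 h. Each group had 2 arrays, and all 4 arrays were of cells stimulated with lipopolysaccharide. The labels do not name separate mice or cultures behind the replicates. A p-value here therefore rests on the spread between 2 samples per group, shared in part over all genes, and that spread may be technical.

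Cullin 3 binds the BTB domain of an adaptor at its N-terminal end and RBX1 at the other, and the Kelch propeller of the adaptor holds the substrate. Attachment of the ubiquitin-like protein NEDD8 to the cullin activates the ligase, and the COP9 signalosome removes it. The best known adaptor of this kind is KEAP1, which brings the transcription factor NRF2 to cullin 3 for degradation. Sulforaphane modifies cysteines of KEAP1 and thereby stabilises NRF2. KLHL21, together with KLHL9 and KLHL13, is known for acting on Aurora B in mitosis, and KLHL21 has also been described as a negative regulator of the NF-kB kinase IKK beta. The label of this gene group covers the Klhl and Kbtbd genes and Ivns1abp, but the Klhdc proteins have Kelch repeats without a BTB domain, and KLHDC2, KLHDC3 and KLHDC10 are known as receptors of cullin 2 ligases.

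The values were log2 signals after RMA, which subtracts background, brings the arrays to a common distribution and summarises each probe set. A level of one probe set is not comparable with that of another, so levels were compared only between arrays. Of the 53 members, 46 exceeded a log2 mean of 2.91, the 40th percentile over probe sets, and were tested among 14652 genes. The member nearest the filter from above was Kbtbd11, with a mean of 2.92, and from below Klhl33, with 2.87. Differences are sulforaphane minus DMSO on the log2 scale with the moderated standard error (SE) of limma, a linear model that shares information on the spread between genes. Adjusted p-values are Benjamini-Hochberg values over all 14652 genes, with a threshold of 0.05. Array medians were 3.24 to 3.27. The interquartile range was 3.41 on DMSO replicate 1, which stood apart, and 3.61 to 3.62 on the other arrays. Over all genes 9 were past the threshold as higher and 10 as lower, a split that became 34 and 72 after a second quantile normalization and 41 and 102 with each array centred on the median of the genes tested. Dendritic cell genes such as Itgax (mean 11.29), H2-Ab1 (11.68) and Ccr7 (10.61) were well above the filter. So were the macrophage genes Lyz2 (11.84) and Csf1r (11.23), the neutrophil genes S100a8 (10.85) and Elane (9.62) and the mast cell gene Cpa3 (9.98), so genes typical of other marrow-derived cells were measured beside those of dendritic cells. In bulk RNA of this kind, fewer cells of a type and less RNA per cell cannot be told apart.

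Klhl21 had the largest difference among the members. The promoter of Klhl21 is shown because the gene leads the group. It is the RefSeq sequence of GRCm38.p6, chr4:152008641-152008940, plus strand, from 250 bases before to 50 bases after the start of the gene. Capitals mark the letters TGACTCA, a sequence that AP-1 factors are known to bind.

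Klhl21: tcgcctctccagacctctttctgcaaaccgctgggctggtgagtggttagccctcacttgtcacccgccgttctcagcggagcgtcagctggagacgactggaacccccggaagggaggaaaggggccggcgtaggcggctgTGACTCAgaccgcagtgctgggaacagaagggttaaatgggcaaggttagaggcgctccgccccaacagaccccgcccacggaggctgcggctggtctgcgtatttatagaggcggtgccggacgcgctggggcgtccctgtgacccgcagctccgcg

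The match begins 108 bases before the start. TGACTCA was searched on both strands, after the promoter had been read, and 5.2% of 32851 promoters of this length held it. Of 45 members with a promoter in the table, 3 held it, namely Klhl21, Kbtbd7 and Klhl40. Klhl24, Kbtbd6 and Klhl42 were among the members without a promoter there, so they were not searched. The core of the antioxidant response element, TGACNNNGC, through which NRF2 acts, was also searched on both strands; it overlaps TGACTCA where the latter is followed by GC. This core was held by 12.4% of all promoters and by 8 of the 45, Kbtbd3, Kbtbd12, Kbtbd13, Klhl12, Klhl13, Klhl17, Klhl28 and Klhl32. The Klhl21 window did not contain these letters. For both sequences the share over all promoters counts single promoters, which came from 27025 genes. A member counted if any of its promoters held the letters, so the counts and shares differ in unit. A match is a description of the letters and not a bound site.

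Signals of Klhl21 were 6.56 and 6.44 on the DMSO arrays and 7.58 and 7.71 on the sulforaphane arrays. Both sulforaphane arrays lay above both DMSO arrays, with 1.01 between the nearest arrays of the groups. The means were 6.50 ± 0.085 (SD, n = 2) and 7.64 ± 0.096, a difference of 1.14 ± 0.12 SE, or 2.21-fold. With any single array left out the difference was between 1.07 and 1.21. Of the 14652 genes tested, 12 had a difference at least as high, Klhl21 included.

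**Figure D1:**
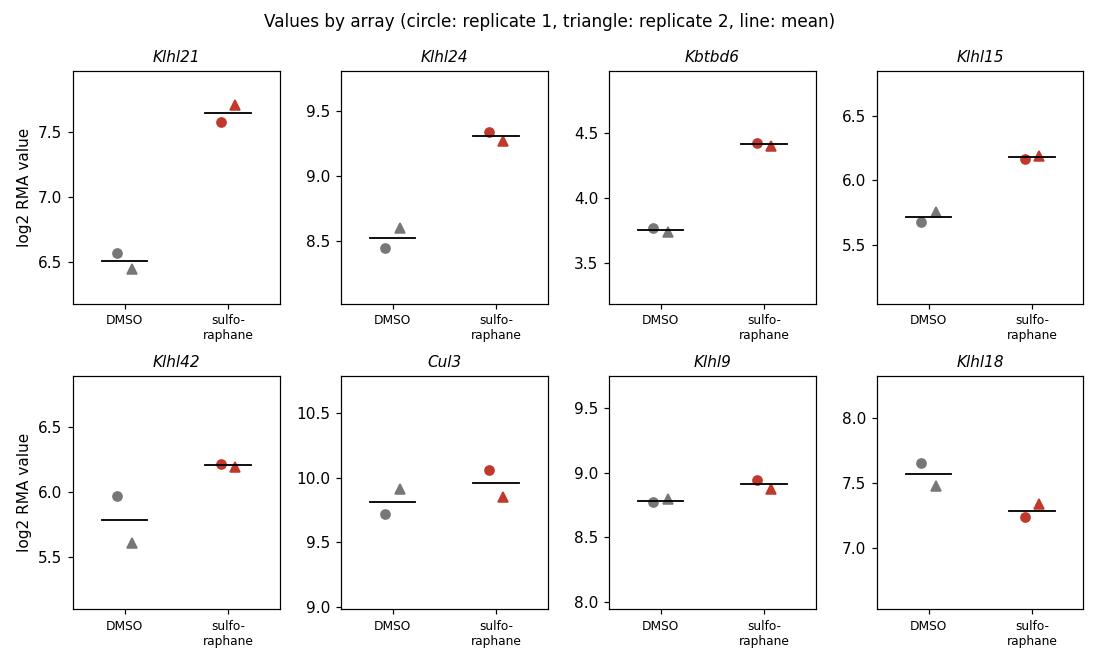
Log2 signal (vertical axis, each panel spanning the same number of log2 units) of 8 members on the DMSO arrays (grey) and the sulforaphane arrays (red); circles are replicate 1, triangles replicate 2 and lines the means of 2 arrays. Klhl21, Klhl24, Kbtbd6, Klhl15 and Klhl42 show no overlap between the groups and higher sulforaphane arrays, Cul3 overlaps, Klhl9 lies 0.13 higher and Klhl18 0.28 lower.

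The next members in the order of differences were Klhl24 and Kbtbd6. Klhl24 encodes an adaptor known for directing keratin 14 to degradation in skin. Its signals were 8.44 and 8.60 in DMSO and 9.34 and 9.27 after sulforaphane, so the groups were 0.68 apart at their nearest arrays. The difference was 0.79 ± 0.11 SE (1.72-fold, 95% interval 0.51 to 1.06), with an adjusted p of 0.0722 by limma, above the threshold. Of all genes tested, 66 had a difference at least as high, Klhl24 included. Kbtbd6 encodes a receptor that, with KBTBD7, directs the RAC1 activator TIAM1 to degradation. Its signals were 3.77 and 3.74 in DMSO and 4.43 and 4.40 after sulforaphane, with the groups 0.63 apart. The difference was 0.66 ± 0.10 SE (1.58-fold, 0.41 to 0.92), with an adjusted p of 0.0846. The paralog Kbtbd7 differed by 0.059 (-0.21 to 0.32), and whether the probes of this pair share target RNA was not tested.

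Klhl24 and Kbtbd6 were the only members besides Klhl21 that differed by at least 1.5-fold without overlap of the groups. That made 2 of the 45 other tested members higher and 0 lower, against 1.32% of all genes higher and 1.49% lower. Without DMSO replicate 1, Klhl42 joined them, which made 3. None of the 45 was past the threshold, which 0.130% of all genes reached. At an unadjusted p under 0.05 stood 4 of the 45, Klhl24, Kbtbd6, Klhl15 and Klhl42, all of them higher, while 13.0% of all genes did so in either direction. That share of members is not above the background, it leaves out Klhl21, and its distance from the background was not tested. The calls for the leading pair depended on the settings. Over 14 alternative settings the adjusted p of Klhl24 ran from 0.00754 to 0.42, and it passed in 4 of them. Klhl24 passed with the filter at the 60th percentile (adjusted p = 0.037), after a second quantile normalization (0.046), with an intensity trend in the prior (0.00754) and with arrays centred on the genes tested (0.0465). Kbtbd6 passed in 1, the filter at the 60th percentile (0.0432), and otherwise reached up to 0.484. Their differences moved little, from 0.71 to 0.86 for Klhl24 with an array left out and from 0.64 to 0.68 for Kbtbd6.

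**Figure D2:**
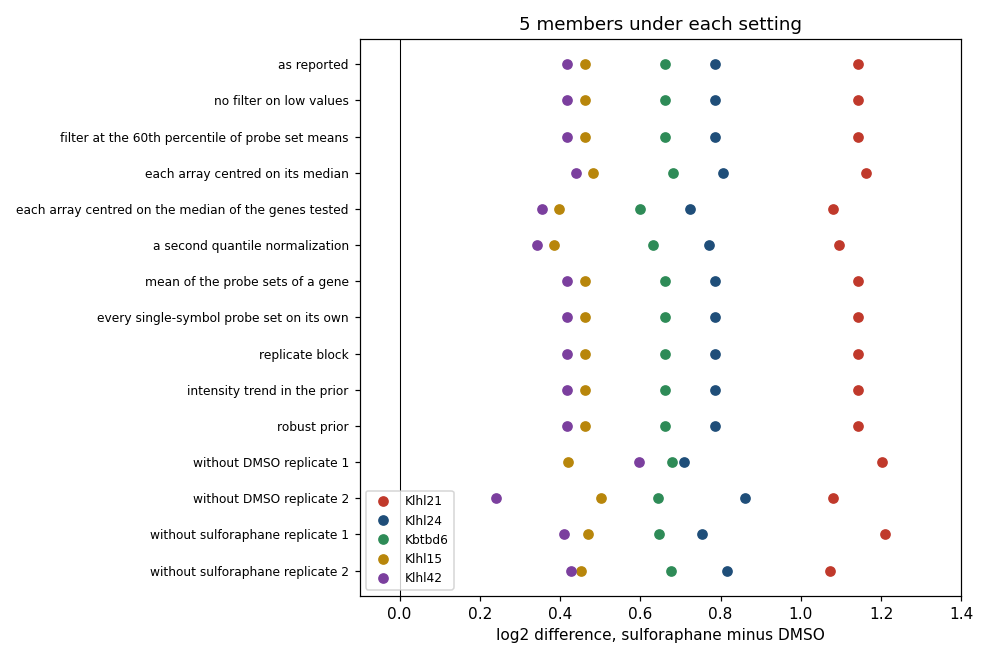
Log2 difference between sulforaphane and DMSO (horizontal axis) of 5 members as reported and under 14 alternative settings (rows). The gap between Klhl21 and Klhl24 is 0.36 as reported and differs only in the 5 rows of the second quantile normalization and the left-out arrays, where it is 0.22 to 0.49.

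The difference between Klhl21 and Klhl24 was 0.36 as reported, and 9 of the 14 alternatives leave these genes' values relative to each other as they are. In the other 5, the second quantile normalization and each array left out, it ran from 0.22 without DMSO replicate 2 to 0.49 without DMSO replicate 1, and it was not tested because Klhl21 had been picked for its size.

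Of the 6 members known for cell division, 5 were tested, and apart from Klhl21, which has no test here, none passed. Klhl21, Klhl42 and Klhl9 had sulforaphane arrays above both DMSO arrays, and Klhl18 had them below, beside 24.0% and 19.5% of all genes. Klhl42 encodes the adaptor for the microtubule-severing enzyme katanin. Its signals were 5.97 and 5.61 in DMSO and 6.22 and 6.20 after sulforaphane, and the difference of 0.42 ± 0.15 SE did not pass (adjusted p = 0.323 by limma); it was 0.60 without DMSO replicate 1 and 0.24 without DMSO replicate 2. Klhl9, the partner of Klhl21 at Aurora B, had 8.77 and 8.79 against 8.94 and 8.88, a difference of 0.13 (95% interval -0.13 to 0.38). The third partner, Klhl13, was below the filter, with signals between 2.25 and 2.47 on the 4 arrays and no test. Klhl22, the adaptor for the mitotic kinase PLK1, had overlapping groups, 5.08 and 5.54 against 5.26 and 5.72. Its difference of 0.18 (-0.34 to 0.71) turned to -0.046 without DMSO replicate 1. Klhl18, which acts on Aurora A, was the lowest of the tested members. Its signals were 7.66 and 7.48 in DMSO and 7.24 and 7.34 after sulforaphane, without overlap, and its difference of -0.28 ± 0.12 SE did not pass (adjusted p = 0.405). The kinase genes Aurkb and Aurka differed by 0.11 and 0.19 and Incenp, the scaffold of the Aurora B complex, by 0.35 (adjusted p = 0.383 by limma). Of the same complex, Birc5 differed by 0.23 with overlapping groups, and Cdca8 by -0.092, lower without overlap. The 8 proliferation markers tested overlapped between the groups in 8 of 8, where 24.0% of all genes were higher and 19.5% lower without overlap. Their median difference was 0.12, and their mean level was 8.30 to 8.60 in DMSO and 8.41 to 8.70 after sulforaphane.

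Of 12 members with a known substrate in signalling, trafficking or metabolism, 7 had sulforaphane arrays above both DMSO arrays, against 24.0% of all genes, and 0 lay below, against 19.5%. These groups of members were formed with the values known, so these counts describe them and test nothing. Klhl15, the adaptor for a regulatory subunit of protein phosphatase 2A, had signals of 5.68 and 5.76 in DMSO and 6.17 and 6.19 after sulforaphane. The difference was 0.46 ± 0.11 SE with an adjusted p of 0.179. Kbtbd2, which controls the p85 alpha subunit of phosphoinositide 3-kinase, differed by 0.25, Kbtbd4, an adaptor for the CoREST repressor, by 0.22 and Klhl12, which ubiquitinates SEC31 of secretory vesicle coats, by 0.20, each with a 95% interval that included 0. Klhl2 and Klhl3, the adaptors for WNK kinases of salt transport, differed by 0.025 (-0.26 to 0.31) and 0.054 (-0.34 to 0.45). Klhl20, which acts on PML and the death-associated kinase DAPK, had 8.81 and 8.90 against 8.84 and 8.96, a difference of 0.044. Klhl25, an adaptor for the translation repressor 4E-BP1, differed by -0.030, and Kbtbd8, known from neural crest formation, by -0.051.

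None of Cul3, Ivns1abp and the 5 Klhdc genes passed the test. Cul3 had 9.72 and 9.91 in DMSO and 10.06 and 9.85 after sulforaphane. Its groups overlapped, and the difference was 0.14 ± 0.13 SE (95% interval -0.18 to 0.47; adjusted p = 0.73 by limma). Leaving out sulforaphane replicate 1 gave 0.037, and leaving out sulforaphane replicate 2 gave 0.25. Ivns1abp, a Kelch protein of actin and RNA splicing first found as a partner of the influenza protein NS1, had 9.80 and 9.69 against 9.71 and 9.47, which is a difference of -0.15 (-0.47 to 0.16). The same omissions gave -0.27 and -0.037. Of the 5 Klhdc genes, 4 had overlapping groups, where 24.0% of all genes were higher and 19.5% lower without overlap. Klhdc3 had 9.17 and 9.48 against 9.38 and 9.58, a difference of 0.16 that was -6.0e-05 without DMSO replicate 1 and 0.32 without DMSO replicate 2. Klhdc2 differed by 0.20, Klhdc1 by 0.022 and Klhdc10 by -0.10. Klhdc4 was measured by 2 probe sets. They differed by 0.039 and 0.13, and in both the sulforaphane arrays were above the DMSO arrays, by 0.0043 and 0.086 at the nearest arrays.

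Members known for muscle, nerve or testis stayed near the filter on all arrays. The means of these 8 genes were between 2.45 and 3.40, and 6 of the 8 were tested, with differences from -0.14 to 0.24. Klhl40 and Klhl41, which stabilise proteins of the muscle sarcomere, were at 2.73 to 3.31 and 2.35 to 2.64. Klhl10, known from sperm development, differed by 0.24 (-0.13 to 0.61), and Klhl1, a neuronal actin-binding member, by -0.14 (-0.43 to 0.14). Klhl30 had 2 probe sets that disagreed in sign, 0.19 and -0.26, with overlapping groups in both. Klhl38 likewise gave -0.068 and 0.042. At signals this close to the filter, background can hide a difference.

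The remaining 20 members, for which no role is given here, ranged from -0.41 for Klhl34 to 0.35 for Klhl35. Klhl35 had 3.25 and 2.94 in DMSO and 3.27 and 3.62 after sulforaphane, so the nearest arrays of the groups were 0.013 apart. Kbtbd3 differed by 0.31 (-0.019 to 0.64). Klhl26 differed by 0.24 (-0.051 to 0.54), with 6.18 and 6.39 against 6.51 and 6.56. On the lower side, Klhl23 had 3.75 and 3.49 against 3.40 and 3.36 (-0.24), Klhl29 3.38 and 3.35 against 3.20 and 3.09 (-0.22), and Klhl36 overlapped (-0.14, but 0.059 without DMSO replicate 2). Klhl34 was below the filter and not tested. Its signals were 2.99 and 3.12 against 2.89 and 2.40, and sulforaphane replicate 2 was the array that stood lowest. The 7 members below the filter were Klhl13, Klhl32, Klhl33, Klhl34, Klhl41, Kbtbd12 and Kbtbd13.

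**Figure D3:**
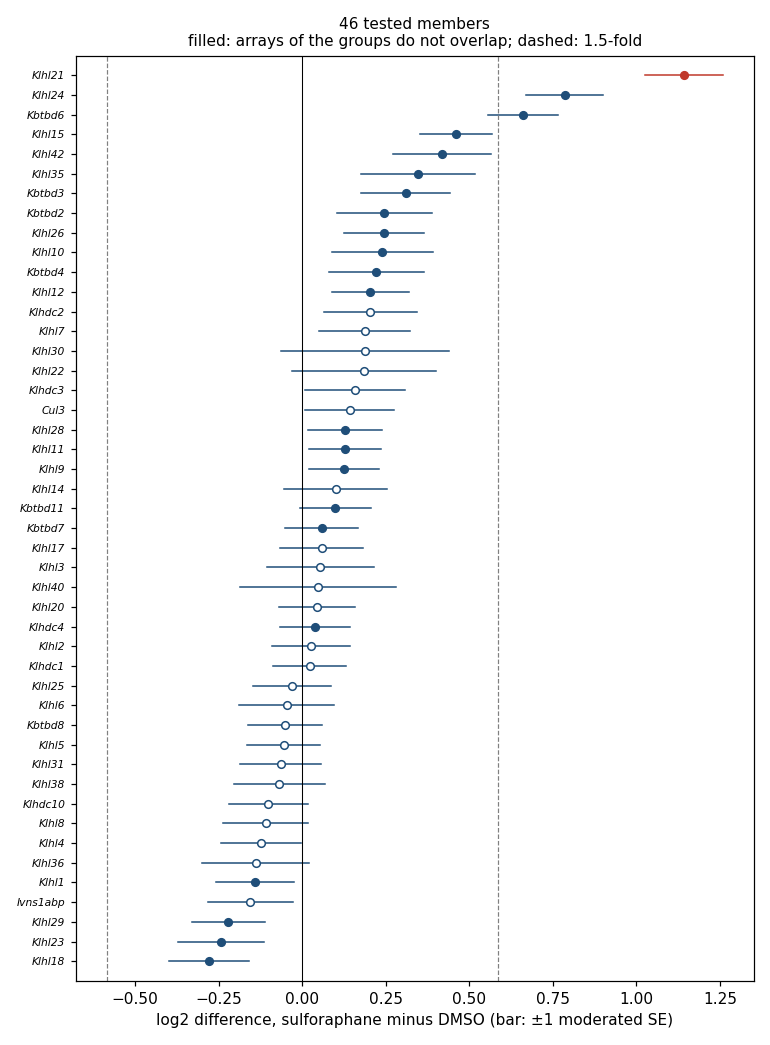
Log2 difference between sulforaphane and DMSO (horizontal axis) of the 46 tested members in order, with bars of 1 moderated SE; filled points have groups that do not overlap and dashed lines mark 1.5-fold. Klhl21 (red, 1.14), Klhl24 (0.79) and Kbtbd6 (0.66) lie beyond the 1.5-fold line, and no member lies beyond it on the lower side.

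Of the 46 tested members, Klhl21 included, 31 lay above 0 and 15 below, with a median of 0.079. Without Klhl21, 30 of 45 lay above 0, with a median of 0.059. Of all genes, 54.2% lay above 0, with a median of 0.018. The median of the members, Klhl21 included, ran from 0.035 to 0.090 with an array left out, where that of all genes ran from -0.0034 to 0.039. With arrays centred on the genes tested it was 0.016, where that of all genes was -0.044. Besides Klhl21, 17 of 45 had higher sulforaphane arrays without overlap and 4 had lower ones, beside the 24.0% and 19.5% of all genes. The median gap between the DMSO arrays was 0.17 for members and 0.15 for all genes, and between the sulforaphane arrays 0.12 for both.

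The wider machinery of the ligase was followed in 5 lists with 80 genes, of which 76 were tested. None was past the threshold over all genes by limma, against 0.130% of all genes, and 10 had an unadjusted p under 0.05, 9 higher and 1 lower, against 13.0%. The lowest p belonged to Dcun1d3, which encodes a protein that promotes the attachment of NEDD8 to cullins. Dcun1d3 had signals of 8.23 and 8.38 in DMSO and 7.26 and 7.40 after sulforaphane, with no overlap. The difference was -0.98 ± 0.12 SE (1.97-fold lower, 95% interval -1.27 to -0.69; adjusted p = 0.0565). It passed in 4 of 14 alternatives, with adjusted p-values between 0.00577 and 0.338 and differences between -1.05 and -0.90. Among the other 9 neddylation genes, Senp8, the protease that trims NEDD8, differed by 0.45 (adjusted p = 0.258), and the median of the 10 was 0.17.

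Of 22 other BTB adaptors of cullin 3 tested, a list chosen with earlier results of these data known, 17 lay above 0, beside 54.2% of all genes. Sulforaphane arrays were higher without overlap in 13 and lower in 1, beside 24.0% and 19.5% of all genes, with a median of 0.19 against 0.018 for all genes, and 0 passed. Kctd7, linked to epilepsy, had 5.78 and 5.97 in DMSO and 6.33 and 6.59 after sulforaphane (0.59 ± 0.14 SE, adjusted p = 0.185). Kctd6 differed by 0.51 (adjusted p = 0.281). Among 25 known substrates or partners of members, Pef1, a calcium-binding partner of KLHL12, had the lowest p: 6.06 and 5.88 in DMSO against 6.54 and 6.61 (0.60 ± 0.12 SE, adjusted p = 0.129). Ikbkb, which encodes IKK beta, the substrate described for KLHL21 in NF-kB signalling, differed by -0.035 (-0.29 to 0.22). The other cullins with the RING gene Rnf7 and the COP9 signalosome had medians of 0.018 and 0.034. Their leading genes were Cul5 (0.23), Rnf7 (-0.22), Cops7b (0.31) and Cops8 (0.16), none past the threshold.

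**Figure D4:**
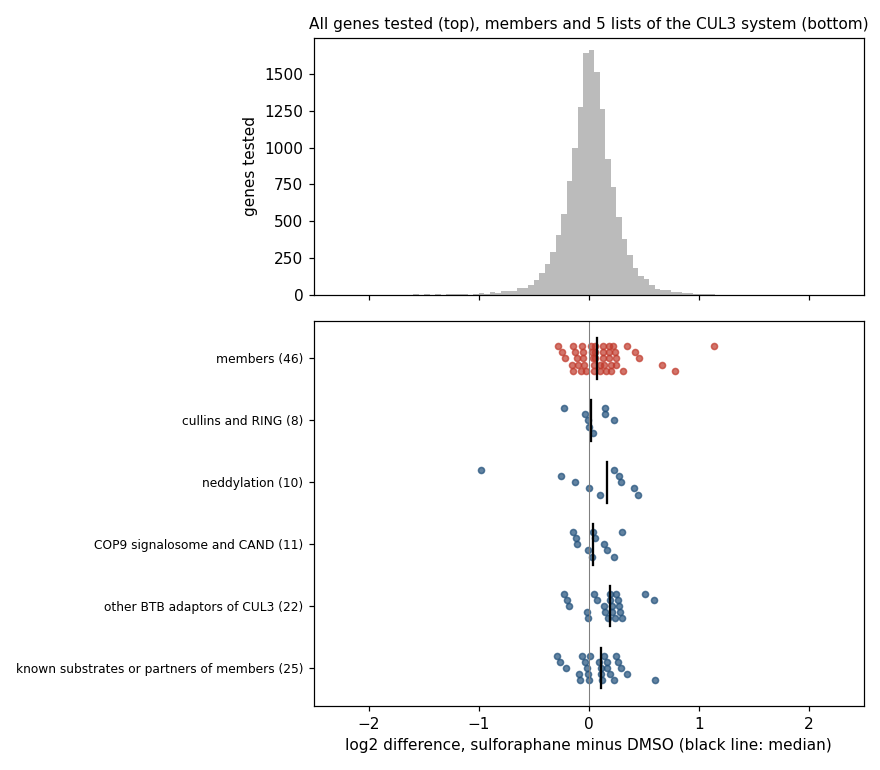
Number of tested genes per bin of log2 difference between sulforaphane and DMSO (top) and the difference of each tested gene for the members and 5 lists of the cullin 3 system (bottom; vertical offsets only separate points, black lines are medians, numbers in brackets are genes). The single gene far to the left among the neddylation genes is Dcun1d3 (-0.98), and the member farthest to the right is Klhl21 (1.14).

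Markers of dendritic cells, macrophages and mast cells had lower mean levels on both sulforaphane arrays than on both DMSO arrays, as did those of T and NK cells. Those of neutrophils and B cells overlapped, and those of stromal cells were higher on both. The mean level of 10 dendritic cell markers was 8.70 to 8.83 in DMSO and 8.52 to 8.59 after sulforaphane. Of these 10, 5 lay above 0, and 3 of them did so without overlap, among them H2-Ab1 (0.26) and H2-Aa (0.16). The other 5 lay below, all 5 without overlap, led by Irf4 (-0.87) and Batf3 (-0.64). Over all genes, 24.0% were higher and 19.5% lower without overlap. For 8 macrophage and monocyte markers the mean level was 10.09 to 10.22 in DMSO and 9.99 on both sulforaphane arrays. For 7 neutrophil markers it was 9.07 to 9.35 and 9.28 to 9.37, and for 6 mast cell and basophil markers 7.65 to 7.69 and 7.37 to 7.52. Hdc (-0.61) and Gata2 (-0.57) were lower without overlap, while Cpa3 differed by 0.015 and Kit by -0.0071. Markers of B cells had means of 3.27 to 3.37 in DMSO and 3.02 to 3.34 after sulforaphane, those of T and NK cells 3.50 to 3.57 and 3.45 to 3.49, and those of stromal cells 3.32 to 3.33 and 3.33 to 3.41. These levels were near the filter, and Ms4a1, Ebf1, Cd3g, Klrb1c and Dcn were below it. The part of these shifts in the differences of Klhl21, Klhl24 and Kbtbd6 was not tested.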

How the data were processed

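Total RNA was labelled as biotinylated cRNA and hybridised to Affymetrix arrays, per the labels' protocols. The deposited values are log2 signals which the authors made by RMA; the submitters' processing notes name R 2.15.1. Base 2 was read from the method and the range of values, and any filter or genome build is not given in the sources used here. Of 41345 probe sets, 23521 had 1 symbol, 1814 had several, and the rest were unnamed. Differences were fitted with limma 3.58.1 in R 4.3.3 (lmFit, eBayes; 2 residual and 4.02 prior degrees of freedom) on 14652 genes without a replicate block, and intervals cover 95%. The fit was run on simulated data with independent normal noise. That run checked the signs and the median size of added differences, and not the p-values. With 2 arrays per group the smallest two-sided p of an exact permutation test is 0.333. Members, gene lists and alternatives were chosen with earlier results of these data known. Genes named were Klhl21 and its mitotic relatives, Cul3, Ivns1abp, the 6 largest differences in each direction, the 4 highest signals, those nearest the filter, those with several probe sets and the leading genes of each list; further members were named after their values were seen. Promoters came from RefSeq.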

Additional observations from a re-analysis of the deposited data

How the results depend on the processing

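The number of genes past the limma threshold, 19 as reported, was 138 with the filter at the 60th percentile, 106 after a second quantile normalization, 143 with arrays centred on the genes tested (chosen after seeing the data), 34 when the probe sets of a gene were averaged, 249 with an intensity trend in the prior and 8 with a replicate block. Leaving out any 1 of the 4 arrays gave 0, while 1036 to 2850 genes had an unadjusted p under 0.05. In the order of the first 3 settings and the trend, members other than Klhl21 past it numbered 2, 1, 1 and 1, and genes of the wider lists 1, 1, 1 and 1, each time Dcun1d3; in the other settings, the replicate block among them, both were 0. The cause of these moves was not tested. Same-numbered arrays deviated with a correlation of -0.0808, which gives no sign of pairing, and the labels do not say what the numbers stand for. The median member difference, Klhl21 included, was 0.13 at the 60th percentile, 0.016 with arrays centred on the genes tested and 0.035 to 0.090 with an array left out. The median of all genes in the same settings was 0.038, -0.044 and -0.0034 to 0.039. The difference of Klhl21 was 1.07 to 1.21 throughout.

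Of the 21 members named by the rules above and followed over the settings, 6 changed sign. The further members named in the text were not followed over the settings. With an array left out Klhl22 ran from -0.046 to 0.42, Klhl36 from -0.34 to 0.059, Klhdc3 from -6.0e-05 to 0.32, Klhl30 from -0.14 to 0.51 and Klhl38 from -0.20 to 0.067. With the mean of probe sets Klhl30 was -0.038, and Klhdc4 was -0.017 after a second quantile normalization and -0.023 with arrays centred on the genes tested. Only 2 arrays per group limit the precision.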
